A study of Mus musculus with 12 samples.

Results

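Mouse embryonic stem (ES) cells of the D3 line were differentiated for 8 days. Cells given the agent labelled NP were compared with cells labelled control, and the RNA of both was measured on arrays. The 3 arrays titled NP day8 were compared with the 3 titled control day8, so 6 of the 12 arrays of the series carry the comparison. All 12 entered the fit. The other 6 were 3 arrays of undifferentiated control cells at day 0 and 3 of day 8 cells given the agent labelled BPA. The question was which genes stood higher or lower at day 8 in the cells given NP. In every group the ES cells had been kept on feeder fibroblasts from mouse embryos that were treated with MMC, and the day 8 cells were differentiated by forming embryoid bodies. The labels do not spell out NP or BPA and give no dose. They do not say whether the replicates were separate cultures, so the spread behind the p-values is that of these samples and may be technical. D3 is 1 cell line, and the labels name no step that removed feeder cells. Nor do they say when, or for how long, the agents were given.

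Naive ES cells are held in an undifferentiated state by a network of transcription factors around Pou5f1, Sox2 and Nanog. When they aggregate into embryoid bodies, that network is shut down, the cells pass through a primed, epiblast-like state, and derivatives of the germ layers appear: an outer endoderm like that of the yolk sac, and inside it heart muscle, vessels, blood and connective tissue. Embryoid bodies are therefore widely used to ask whether a chemical disturbs early development.

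Values are log2 signals as the authors deposited them, and changes are NP day8 minus control day8 on that scale, each with its standard error from the model (3 arrays per group). Of 13067 genes tested, 1852 (14.2%) passed at an adjusted p under 0.05 by limma, 1032 of them higher with NP (7.9%) and 820 lower (6.28%). Counts within gene lists below are to be read beside these shares of all genes. Among the calls 764 (5.85% of genes) reached 2-fold, 409 higher (3.13%) and 355 lower (2.72%). The 3 NP arrays lay wholly above or wholly below the 3 control arrays for 4544 genes (34.8%). They did so for 1847 of the 1852 called genes, so a lack of overlap stated below adds little to a call. The median change over all genes was 0.01, and the median size of a called change was 0.82 for rises and 0.89 for falls. The number of calls rested on single arrays: it was 802 when control day8 replicate 1 was left out, 1022 for control day8 replicate 2, 854 for NP day8 replicate 2 and 896 for NP day8 replicate 3. Of the 1852 genes, 675 passed in the same direction in each of the 12 fits with an array left out, 404 higher and 271 lower. A single gene written below to rise or fall passed in all 12 of those fits, except where arrays are named; replicates are then called array 1, 2 or 3 of their group.

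**Figure D1:**
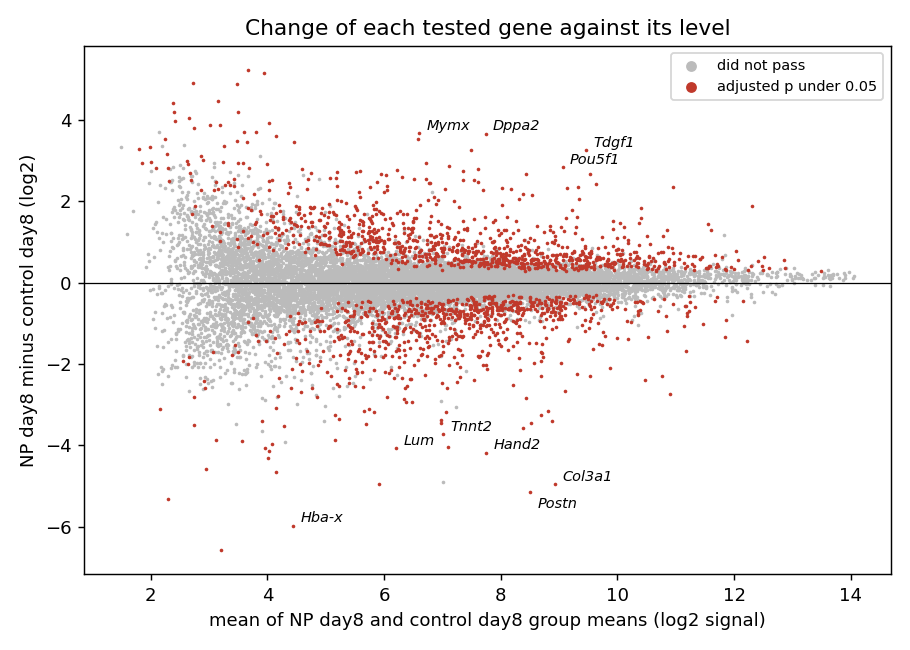
Change of each tested gene (NP day8 minus control day8, log2) against the mean of the 2 group means (log2 signal). Red points are the 1852 genes with an adjusted p under 0.05 and grey points the rest; the named falls reach further from 0 than the named rises, and grey points spread widely at low signal.

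Each array had been scaled to a trimmed mean signal of 100, and 59.2% to 62.2% of probe sets on the 6 day 8 arrays lay above a background log2 signal of 3.41, taken from bacterial control probe sets. Across genes, which are not independent replicates, Pearson's r was 0.941 to 0.951 between NP arrays, 0.942 to 0.949 between control day8 arrays and 0.89 to 0.933 between an NP and a control day8 array. NP day8 replicate 1 was the NP array nearest to the controls (r of 0.922 to 0.933). With 3 arrays a group, precision is limited by their number.

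Genes of undifferentiated cells rose together. In the list of naive pluripotency genes 33 of 36 tested members (91.7%) rose, with a median change of 1.76, and the rest, Tbx3 (0.29), Slc2a3 (0.21) and Lin28a (0.07), did not pass. Pou5f1, the central transcription factor of pluripotency, had log2 signals of 9.94, 10.52 and 10.97 on NP day8 arrays, against 6.81, 7.63 and 8.49 on control day8 arrays. Every NP array lay above every control array, and the rise was 2.83 ± 0.38, or 7.12-fold higher (adjusted p = 0.00196). Nanog, a homeodomain factor of the same network, was at 10.16, 10.502 and 10.25 on NP day8 arrays, against 7.29, 8.06 and 8.60 on control day8 arrays, again without overlap,. Nanog rose by 2.32 ± 0.28 (adjusted p = 0.00135). Sox2, which binds DNA beside Pou5f1, rose by 1.47 ± 0.14 (adjusted p = 0.000652), Zfp42, a zinc finger protein and a classical ES cell marker, by 2.35 ± 0.22 and Esrrb, an orphan nuclear receptor of the naive network, by 1.89 ± 0.20.

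The largest rise of the list was that of Dppa2, a chromatin-bound protein of pluripotent cells, at 9.19, 9.75 and 9.77 on NP day8 arrays, against 5.13, 6.08 and 6.54 on control day8 arrays. This was 12.6-fold higher with NP (adjusted p = 0.000557), and the lowest NP array stood far above the highest control array. Nr0b1, a nuclear receptor protein that binds to Pou5f1 and Esrrb, was at 8.14, 8.40 and 8.49 on NP day8 arrays, against 3.65, 4.99 and 5.77 on control day8 arrays. Nr0b1 rose by 3.54 ± 0.42. Eras, a constitutively active Ras protein of ES cells, rose by 3.25 ± 0.26, Triml1 by 2.76 ± 0.22, and Zfp979, a zinc finger gene, by 2.94 ± 0.26. Mymx, which encodes a micropeptide of myoblast fusion, was among the 10 largest rises at 8.10, 8.51 and 8.70 on NP day8 arrays, against 3.54, 5.04 and 5.71 on control day8 arrays. It rose by 3.67 ± 0.47, and in undifferentiated control cells it stood higher still, at a mean of 10.01 ± 0.44 (SD, n = 3).

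**Figure D2:**
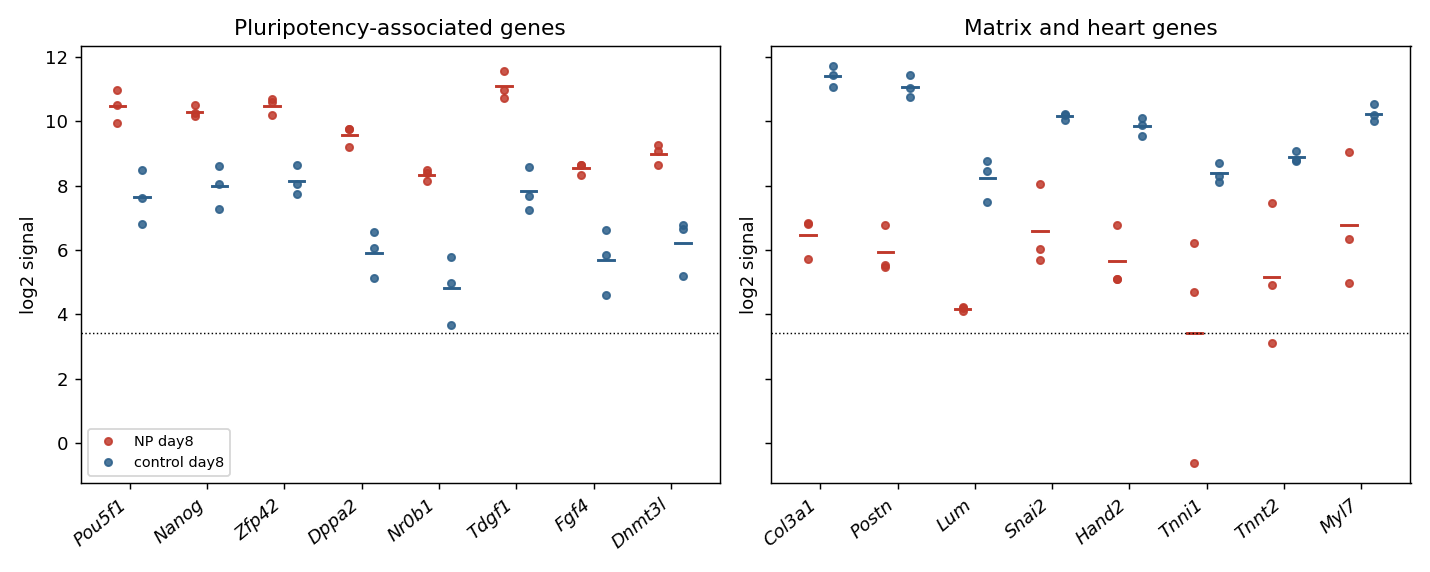
Log2 signal of 16 genes on each array, NP day8 (red) left of control day8 (blue); points are arrays, short bars group means and the dotted line the background signal of 3.41. On the left the NP arrays lie above the control arrays for each gene, and on the right below them; for Tnnt2, Tnni1 and Myl7 NP day8 replicate 1 is the highest NP array.

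The control day8 arrays differed more among themselves than the NP arrays for these genes. The mean over the 36 naive genes was 9.10, 9.43 and 9.37 on the NP arrays and 7.07, 7.64 and 7.86 on the control day8 arrays, with control day8 replicate 1 the lowest. On control day0 arrays it was 9.96 to 10.05. NP arrays thus stood 1.78 above control day8 arrays and below the undifferentiated cells. In bulk RNA, a larger share of cells of a type and more RNA per cell cannot be told apart.

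Genes that mark the primed epiblast, the state that follows the naive one, were also higher: 7 of 12 members rose and 1 fell (median 1.29). Fgf5, the growth factor that marks this state, was at 6.93, 6.99 and 7.78 on NP day8 arrays, against 4.27, 5.06 and 5.27 on control day8 arrays, with no overlap,. Fgf5 rose by 2.36 ± 0.30 (adjusted p = 0.00162). Pou3f1, a POU transcription factor of epiblast and neural tissue, rose by 2.03 ± 0.23, Foxd3, a forkhead factor, by 1.85 ± 0.23, and Dnmt3b, a de novo DNA methyltransferase, by 1.47 ± 0.14. Cdh2 (N-cadherin), which replaces E-cadherin in mesoderm, fell by 1.10 ± 0.28. The Cdh2 call was lost without control day8 array 1 or 2 or NP day8 array 2 or 3 (highest adjusted p 0.104).

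Nodal and FGF, secreted signals that steer pluripotent cells, induce inhibitors of their own pathways. Of 15 Nodal pathway genes 6 rose and 2 fell. Tdgf1 (Cripto), the membrane co-receptor for Nodal, was at 10.73, 10.97 and 11.57 on NP day8 arrays, against 7.25, 7.67 and 8.60 on control day8 arrays, a separation of more than 2 log2 units between the nearest arrays,. Tdgf1 rose by 3.25 ± 0.31 (adjusted p = 0.000638). Lefty1 (2.75 ± 0.27) and Lefty2 (2.68 ± 0.30), secreted inhibitors that Nodal induces, rose as well. Smad3, an intracellular transducer of the pathway, changed by -0.59 ± 0.15 on its probe set with the highest mean. The Smad3 call was lost without any 1 of the control day8 arrays or NP day8 array 2 or 3 (highest adjusted p 0.0887). Its other probe set went the opposite way, and the mean of both gave a change of 0.29. In the list of FGF and LIF pathway genes 8 of 27 rose: Fgf4, the autocrine growth factor of ES cells, was at 8.34, 8.65 and 8.65 on NP day8 arrays, against 4.61, 5.84 and 6.61 on control day8 arrays. Fgf4 rose by 2.86 ± 0.39, and Spry4, a feedback inhibitor of FGF receptors, rose by 1.59 ± 0.29. The count for this list was 5 without control day8 replicate 1 or NP day8 replicate 2.

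Germ cell genes, many of which ES cells also transcribe, formed a further group: 11 of 21 tested members rose (median 1.49). Dazl, an RNA-binding protein of the germ line, was at 6.54, 7.28 and 6.81 on NP day8 arrays, against 3.72, 4.49 and 4.24 on control day8 arrays. NP and control arrays were separated by about 2 log2 units, and the rise was 2.73 ± 0.28 (adjusted p = 0.000781). Stra8, the retinoic acid target that opens meiosis, was at 7.27, 7.70 and 7.11 on NP day8 arrays, against 4.23, 4.85 and 5.04 on control day8 arrays. Stra8 rose by 2.65 ± 0.31. Hsf2bp, a partner of meiotic BRCA2, rose by 2.74 ± 0.51, or by 2.500 with the 1 control day8 array under background set to it. Slc25a31, an ADP/ATP carrier of the germ line, was at 5.47, 4.81 and 5.23 on NP day8 arrays, against -1.66, -1.001 and 3.46 on control day8 arrays. Control day8 replicates 1 and 2 lay under background, and with values under background set to it the gene was at least 3.35-fold higher with NP. The Slc25a31 call was lost without control day8 array 1 or 2 or NP day8 array 3 (highest adjusted p 0.0589).

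The promoters of several of these germ cell genes hold the E-box letters CACGTG, a palindrome that reads the same on both strands. Among the 11 germ cell genes that rose, 9 had a single promoter in the RefSeq table (GRCm38.p6), and 5 of the 9 (55.6%) held CACGTG in the 250 bases before the start, compared with 8.46% of 8391 tested genes. Of the list members that did not pass, 2 of 7 held it. This was 1 of 14 strings searched in 6 lists, chosen with the results known, and a match is a description and not a bound site. The stretches below show these 5 promoters, 5′ to 3′ on the gene's strand, with the E-box in capitals.
Slc25a31 (chr3:40708743-40708818, + strand): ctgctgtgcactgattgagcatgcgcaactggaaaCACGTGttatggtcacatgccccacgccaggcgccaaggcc
Mael (chr1:166238927-166238994, - strand): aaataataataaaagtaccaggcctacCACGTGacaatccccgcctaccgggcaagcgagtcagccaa
Sycp3 (chr10:88459509-88459584, + strand): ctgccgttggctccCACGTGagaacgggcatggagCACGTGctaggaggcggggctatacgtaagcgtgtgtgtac
Ddx4 (chr13:112652311-112652374, - strand): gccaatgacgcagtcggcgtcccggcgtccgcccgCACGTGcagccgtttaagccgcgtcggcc
Taf7l (chrX:134476499-134476574, - strand): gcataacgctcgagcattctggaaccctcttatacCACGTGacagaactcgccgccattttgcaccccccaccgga
Sycp3, a protein of the synaptonemal complex, holds the E-box 2 times in its stretch, and its signals were 8.25, 8.56 and 8.78 on NP day8 arrays, against 6.86, 6.502 and 7.39 on control day8 arrays, a rise of 1.61 ± 0.25. Mael, a piRNA pathway protein, was at 6.47, 7.22 and 7.13 on NP day8 arrays, against 4.11, 4.96 and 4.69 on control day8 arrays. Mael rose by 2.35 ± 0.24. Ddx4 (Vasa), an RNA helicase of germ cells, rose by 1.47 ± 0.23. Taf7l, a germ cell variant of a TFIID subunit, was at 1.03 ± 0.30 with an adjusted p of 0.0482. The Taf7l call was lost without any 1 of the BPA day8 or NP day8 arrays, control day0 array 1 or control day8 array 1 or 2 (highest adjusted p 0.149).

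Enzymes of DNA methylation and Polycomb complexes set the chromatin of pluripotent cells. In the DNA methylation list 7 of 13 members rose (median 0.44), led by Dnmt3l, the cofactor of the de novo methyltransferases, at 8.64, 9.09 and 9.26 on NP day8 arrays, against 5.19, 6.65 and 6.79 on control day8 arrays. No arrays overlapped, and the rise was 2.79 ± 0.39 (adjusted p = 0.00249). Tet1, which oxidises methylcytosine, rose by 1.52 ± 0.22. Of 26 Polycomb genes 8 rose and 2 fell. Phc1, a subunit of PRC1, was at 9.93, 10.12 and 10.31 on NP day8 arrays, against 8.38, 8.53 and 8.59 on control day8 arrays. Phc1 rose by 1.62 ± 0.12 (adjusted p = 0.000255), while Jarid2 (0.89 ± 0.13) and Mtf2 (0.80 ± 0.12), accessory subunits of PRC2, rose less. Bmi1, an alternative PRC1 subunit, fell by 0.68 ± 0.11, and Yaf2, another PRC1 component, by 0.91 ± 0.20. The Yaf2 call was lost without control day8 array 1 or 2 or NP day8 array 2 or 3 (highest adjusted p 0.0638). The number of Polycomb genes that rose was 4 without control day8 replicate 1 and 5 without any 1 of the NP arrays. Among 24 SWI/SNF subunits, Actl6a, the actin-like subunit of stem and progenitor cells, rose by 0.64 ± 0.09, Smarca2 (BRM), a catalytic subunit, fell by 0.71 ± 0.11, and Smarcd3, the subunit of heart progenitors, fell by 2.12 ± 0.46. These were 4.17% of the subunits higher and 8.33% lower, near the 7.9% and 6.28% over all genes. The Smarcd3 call was lost without control day8 array 1 or 2 or NP day8 array 2 or 3 (highest adjusted p 0.0628).

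Connective tissue genes fell together. Of 42 genes of fibroblasts and their matrix 25 (59.5%) fell and the other 17 did not pass (median -1.50). Col3a1, a fibrillar collagen, had log2 signals of 6.80, 5.72 and 6.84 on NP day8 arrays, against 11.73, 11.06 and 11.45 on control day8 arrays. The highest NP array lay more than 4 log2 units below the lowest control array, and RNA was 31.1-fold lower with NP (change -4.96 ± 0.33, adjusted p = 0.000218). Postn (periostin), a matrix protein of heart valves and mesenchyme, was at 6.77, 5.54 and 5.48 on NP day8 arrays, against 11.44, 10.75 and 11.05 on control day8 arrays, or 35.5-fold lower (change -5.15 ± 0.32, adjusted p = 0.000218). Lum (lumican), a proteoglycan that spaces collagen fibrils, was at 4.11, 4.22 and 4.19 on NP day8 arrays, against 8.47, 7.49 and 8.77 on control day8 arrays. Lum fell by 4.07 ± 0.30.

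Further collagens were lower. Col5a2 fell by 4.05 ± 0.39, Col1a1 by 3.18 ± 0.35 and Col1a2 by 2.29 ± 0.26. Snai2 (Slug), a transcription factor of the epithelial to mesenchymal transition, was at 8.06, 6.02 and 5.70 on NP day8 arrays, against 10.23, 10.05 and 10.21 on control day8 arrays. NP day8 replicate 1 was about 2 log2 units above the other NP arrays but still below every control array, and the fall was 3.57 ± 0.66 (adjusted p = 0.00834). Adam12, a metalloprotease of mesenchyme, was at 4.13, 3.07 and 2.49 on NP day8 arrays, against 7.15, 7.11 and 7.05 on control day8 arrays, and with NP day8 replicates 2 and 3 set to background it was at least 10.9-fold lower (adjusted p = 0.000433). Of 29 genes for matrix proteases and their inhibitors 7 fell and 1 rose, and the first count was 4 without control day8 replicate 1 or NP day8 replicate 2. Adamts1, which cleaves versican, fell by 1.83 ± 0.22 and Mmp2 (gelatinase A) by 1.54 ± 0.18. The fibroblast markers S100a4 and Thy1 lay near or under background in both day 8 groups. S100a4 was at 3.80, 4.32 and 0.91 on NP day8 arrays, against 2.87, 3.81 and 2.60 on control day8 arrays. Thy1 was at 2.73, 3.93 and 3.80 on NP day8 arrays, against 3.11, 1.73 and 4.06 on control day8 arrays, and the groups overlapped for both genes.

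Heart genes were lower, and NP day8 replicate 1 often lay nearest to the controls. Of 27 sarcomere and muscle genes 10 fell (median -1.19) and of 18 heart transcription factors 8 fell (median -1.48). Hand2, a bHLH factor of heart and limb mesoderm, was at 6.77, 5.11 and 5.09 on NP day8 arrays, against 10.12, 9.88 and 9.53 on control day8 arrays. Hand2 fell by 4.19 ± 0.73 (adjusted p = 0.00682), a call that was lost with the mean of probe sets. Zfpm2 (FOG2), a partner of GATA factors, changed by -3.35 ± 0.499, or by -3.01 with the 2 NP arrays under background set to it. Myh6, the atrial myosin heavy chain, was at 5.82, 4.38 and 4.54 on NP day8 arrays, against 7.64, 8.501 and 7.19 on control day8 arrays, and fell by 2.87 ± 0.44. Mef2c, an activator of muscle genes, fell by 2.57 ± 0.58. The Mef2c call was lost without control day8 array 1 or 2 or NP day8 array 2 or 3 (highest adjusted p 0.0689). Nkx2-5, the homeodomain factor of heart progenitors, overlapped between the groups at 4.04, 5.44 and 4.498 on NP day8 arrays, against 5.26, 5.41 and 3.71 on control day8 arrays (-0.13 ± 0.53, adjusted p = 0.904).

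Tnnt2, cardiac troponin T, was at 7.45, 3.12 and 4.90 on NP day8 arrays, against 8.79, 9.09 and 8.76 on control day8 arrays. The NP arrays spread over 4 log2 units, with NP day8 replicate 1 nearest to the controls and NP day8 replicate 2 below background. The fitted change of -3.72 ± 1.02, or -3.63 with that array set to background, had an adjusted p of 0.0403 and was lost without any 1 of the control day8 or BPA day8 arrays, control day0 array 3 or NP day8 array 2 or 3 (highest adjusted p 0.12). Tnni1, the slow troponin I of embryonic heart, was at 6.23, -0.63 and 4.68 on NP day8 arrays, against 8.72, 8.32 and 8.13 on control day8 arrays, with a change of -3.61 once NP day8 replicate 2 was set to background, and its call (adjusted p = 0.0411) was lost without any 1 of the control day0, control day8 or BPA day8 arrays or NP day8 array 3 (highest adjusted p 0.116). Myl7, the atrial myosin light chain, was at 9.05, 4.96 and 6.35 on NP day8 arrays, against 10.19, 10.54 and 10.003 on control day8 arrays, and its call was lost without any 1 of the control day8 arrays or NP day8 array 2 or 3 (highest adjusted p 0.0969). The mean over the 27 sarcomere genes was 6.18, 4.85 and 5.19 on the NP arrays and 6.73, 6.95 and 6.50 on the control day8 arrays, with no overlap of the means. The count of falling sarcomere genes was 2 without control day8 replicate 1 or 2 or NP day8 replicate 2 or 3 and 6 without control day8 replicate 3. That of heart transcription factors was 4 or 5 without any 1 of the control day8 arrays or NP day8 replicate 2 or 3, and 4 with the mean of probe sets.

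The promoters of 4 of the falling sarcomere genes hold the letters CATTCC or, on the other strand, GGAATG, the MCAT string that TEAD factors bind in muscle genes. Of the 10 genes that fell, 7 had a single promoter in the RefSeq table and 4 of the 7 (57.1%) held the string in the 250 bases before the start. It was held by 10.8% of all tested promoters, and by 3 of 8 promoters of sarcomere genes that did not pass. This string too was 1 of 14 searched in 6 lists and was chosen with the results known. A match is a description and not a bound site. The 4 stretches are shown 5′ to 3′ on the gene's strand, with the string in capitals.
Tnnc1 (chr14:31208219-31208294, + strand): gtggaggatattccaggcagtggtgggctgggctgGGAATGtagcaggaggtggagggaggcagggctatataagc
Myh6 (chr14:54966773-54966848, - strand): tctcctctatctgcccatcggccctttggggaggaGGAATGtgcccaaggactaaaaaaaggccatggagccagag
Myl7 (chr11:5898812-5898887, - strand): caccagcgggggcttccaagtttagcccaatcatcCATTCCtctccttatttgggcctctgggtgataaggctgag
Tpm1 (chr9:67049229-67049304, - strand): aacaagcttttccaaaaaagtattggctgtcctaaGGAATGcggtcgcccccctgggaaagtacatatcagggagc
Tnnc1, the calcium-binding troponin C of heart and slow muscle, was at 7.44, 5.84 and 5.17 on NP day8 arrays, against 8.29, 8.62 and 8.48 on control day8 arrays. Tnnc1 fell by 2.31 ± 0.53. The Tnnc1 call was lost without control day8 array 1 or 2 or NP day8 array 2 or 3 (highest adjusted p 0.0754). Tpm1, a tropomyosin of many cell types, fell by 0.66 ± 0.14. The Tpm1 call was lost without control day8 array 1 or NP day8 array 2 or 3 (highest adjusted p 0.0604).

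Of 21 endothelial genes 9 fell (median -1.05), and of 12 blood genes 3 fell and 2 rose. Of the blood genes 1 fell without any 1 of the control day8 arrays or NP day8 replicate 2 or 3. Kdr (VEGFR2), the VEGF receptor of endothelial and blood progenitors, was at 5.40, 5.11 and 4.85 on NP day8 arrays, against 7.66, 7.74 and 7.57 on control day8 arrays, with more than 2 log2 units between the groups,. Kdr fell by 2.54 ± 0.44 (adjusted p = 0.00677). Aplnr, the apelin receptor, fell by 3.19 ± 0.73. The Aplnr call was lost without control day8 array 1 or 2 or NP day8 array 2 or 3 (highest adjusted p 0.0731). The junction protein Cldn5, under background on NP day8 replicates 2 and 3, was at least 4.81-fold lower. The Cldn5 call was lost without any 1 of the control day8 arrays or NP day8 array 2 (highest adjusted p 0.0871). Pecam1, an adhesion molecule of endothelium, overlapped (-0.73 ± 0.64, adjusted p = 0.506). The count of falling endothelial genes was 5 without control day8 replicate 1 or 2. Hba-x, the embryonic alpha-type globin, was at 5.39, -1.48 and 0.46 on NP day8 arrays, against 7.59, 7.21 and 7.48 on control day8 arrays. With NP day8 replicates 2 and 3 set to background it was at least 10.3-fold lower, and its call (adjusted p = 0.0413) was lost without any 1 of the control day0 or control day8 arrays, BPA day8 array 1 or NP day8 array 2 or 3 (highest adjusted p 0.131). Hbb-bh1, an embryonic beta-type globin, was at 8.01, 4.24 and 1.44 on NP day8 arrays, against 9.87, 9.19 and 9.32 on control day8 arrays, and with that spread between the NP arrays it did not pass (-4.90 ± 2.07, or -4.24 with NP day8 replicate 3 set to background, adjusted p = 0.153). For both globins NP day8 replicate 1 was the highest NP array. Acta2, smooth muscle actin, was at 10.33, 8.999 and 8.46 on NP day8 arrays, against 11.87, 11.62 and 11.51 on control day8 arrays. Acta2 fell by 2.40 ± 0.45 (adjusted p = 0.00907). It was 1 of 4 of 13 smooth muscle genes that fell, a count of 1 or 2 without control day0 replicate 2, any 1 of the control day8 arrays, or NP day8 replicate 2 or 3.

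Yolk sac endoderm forms the outer layer of embryoid bodies. By limma 0 of 26 members of the list passed in either direction, and 2 had an unadjusted p under 0.05, both higher (median 0.05). The share of all genes that were higher at that unadjusted p was 15.4%. The number that passed higher was 3 without control day8 replicate 3, 1 without NP day8 replicate 1 and 2 with a pseudocount of 16 or 32. Afp, a serum protein of the fetus, was at 12.46, 12.34 and 12.44 on NP day8 arrays, against 11.34, 10.61 and 11.82 on control day8 arrays; the groups did not overlap, but the change of 1.16 ± 0.72 did not pass (adjusted p = 0.33). Afp passed with a pseudocount of 16 or 32 (adjusted p = 0.0133 and 0.00402) and with the mean of its probe sets, a change of 1.94 (adjusted p = 0.02). Ttr, the carrier of thyroid hormone and retinol, was at 12.15, 11.91 and 11.74 on NP day8 arrays, against 11.80, 11.49 and 12.48 on control day8 arrays, with a change of 0.01 ± 0.25. Sox17, an endoderm transcription factor, was at 0.38 ± 0.25 and Gata4, a GATA factor of endoderm and heart, at -0.41 ± 0.69, and neither passed. Gata6, a GATA factor of primitive endoderm and of heart mesoderm, was at 7.76, 7.84 and 8.25 on NP day8 arrays, against 9.75, 9.52 and 9.12 on control day8 arrays. Gata6 fell by 1.51 ± 0.20 (adjusted p = 0.00191). It was 1 of 3 of 14 endoderm transcription factors that fell, and the 1 that fell without control day8 replicate 1 or 2 or NP day8 replicate 2 or 3. Foxa1 (-1.45 ± 0.38), a pioneer factor of endoderm, and Isl1 (-1.80 ± 0.47), a homeodomain factor of heart progenitors and endoderm, passed as well. The Foxa1 call was lost without control day8 array 1 or 2, BPA day8 array 2 or NP day8 array 2 or 3 (highest adjusted p 0.117). The Isl1 call was lost without any 1 of the control day8 arrays or NP day8 array 2 or 3 (highest adjusted p 0.108).

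Of 14 genes of parietal endoderm, which lays down a thick basement membrane, 3 rose, a count of 0 without control day8 replicate 1 or 2 or NP day8 replicate 2 or 3 and 1 without control day8 replicate 3. Lama1, the laminin chain of the earliest basement membranes, was at 8.64, 9.39 and 10.07 on NP day8 arrays, against 8.25, 8.32 and 7.83 on control day8 arrays (1.23 ± 0.35, adjusted p = 0.0461). The Lama1 call was lost without any 1 of the control day8 or BPA day8 arrays, control day0 array 1 or 2 or NP day8 array 2 or 3 (highest adjusted p 0.139). Srgn (serglycin), a proteoglycan made by parietal endoderm and blood cells, was at 9.27, 9.93 and 10.55 on NP day8 arrays, against 8.14, 8.15 and 8.68 on control day8 arrays (1.59 ± 0.35, adjusted p = 0.0184). The Srgn call was lost without control day8 array 1 or 2 or NP day8 array 2 or 3 (highest adjusted p 0.068). Of 30 integrin, laminin and basement membrane genes 4 rose and 7 fell. The first count was 0 without control day8 replicate 1 or NP day8 replicate 2, 1 without control day8 replicate 2 or NP day8 replicate 3 and 2 without control day8 replicate 3, and the second was 4 without control day8 replicate 1 or NP day8 replicate 2. Itga8, an integrin chain of mesenchyme, fell by 1.81 ± 0.23. Of 24 epithelial genes 5 rose, led by Epcam (0.75 ± 0.14), an adhesion protein of epithelia and ES cells, and Cdh1 (E-cadherin), at 11.06, 11.07 and 11.08 on NP day8 arrays, against 10.35, 10.46 and 10.19 on control day8 arrays (0.74 ± 0.09, adjusted p = 0.0014). That count was 3 without control day8 replicate 1 or any 1 of the NP arrays.

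Of 15 trophoblast genes 3 rose and 1 fell. The first count was 0 without control day8 replicate 1 or NP day8 replicate 2, and 1 without control day0 replicate 2, control day8 replicate 2, BPA day8 replicate 1 or 2, or NP day8 replicate 1 or 3. Tfap2c, an AP-2 factor of trophoblast and germ cells, was at 9.21, 9.29 and 8.62 on NP day8 arrays, against 7.86, 8.10 and 7.88 on control day8 arrays (1.09 ± 0.23). The Tfap2c call was lost without control day8 array 1 or NP day8 array 2 (highest adjusted p 0.0595). Elf5, a factor of trophoblast stem cells, was at least 2.71-fold higher and Ctsj, a placental cathepsin, at least 3.35-fold higher, with values under background set to it (2 of the 3 control day8 arrays for Elf5, 1 for Ctsj). The Elf5 call was lost without any 1 of the BPA day8 or NP day8 arrays, control day0 array 2 or control day8 array 1 or 2 (highest adjusted p 0.143). The Ctsj call was lost without any 1 of the control day0 or NP day8 arrays, control day8 array 1 or 2 or BPA day8 array 1 or 2 (highest adjusted p 0.114). Cdx2, the trophoblast and hindgut factor, did not pass (-0.75 ± 0.94).

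Neural tissue and the primitive streak, where mesoderm first forms, are further early fates of these cells. Of 23 neural genes 5 rose and 2 fell, the first a count of 2 or 3 without control day8 replicate 1 or 3, NP day8 replicate 2 or 3, BPA day8 replicate 3 or any 1 of the control day0 arrays. Stmn2, a microtubule regulator of neurons that ES cells also express here, was at 8.77, 9.10 and 9.65 on NP day8 arrays, against 6.68, 6.77 and 7.09 on control day8 arrays. Stmn2 rose by 2.33 ± 0.22, and it stood at a mean of 10.73 ± 0.07 (SD, n = 3) in undifferentiated control cells. Ncam1, the neural cell adhesion molecule, fell by 1.42 ± 0.24, whereas Pax6 (0.53 ± 0.37), a neural transcription factor, and Nes (0.06 ± 0.23), an intermediate filament of progenitors, did not pass. Tcf15, a bHLH factor of paraxial mesoderm and of ES cells leaving the naive state, was at 7.24, 7.64 and 8.51 on NP day8 arrays, against 5.14, 5.26 and 5.34 on control day8 arrays. Tcf15 rose by 2.55 ± 0.26 (adjusted p = 0.000781), while Mesp1, a factor of early mesoderm, did not pass (-0.40 ± 0.39). Brachyury (T) was not analysed here. Of 13 Hox genes 0 passed by limma and 3 had an unadjusted p under 0.05, all lower. Over all genes 28.6% had an unadjusted p under 0.05, 13.3% lower and 15.4% higher.

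BMP, Wnt and Notch signals pattern the mesoderm. In the TGF-beta and BMP list 10 of 26 fell and 1 rose (median -0.72). Bmp5, a BMP ligand, was at 6.06, 4.79 and 3.91 on NP day8 arrays, against 7.90, 7.89 and 7.75 on control day8 arrays. Bmp5 fell by 2.93 ± 0.55 (adjusted p = 0.00885). Tgfbi, a matrix protein induced by TGF-beta, fell by 2.30 ± 0.45, and Tgfb2, one of the TGF-beta ligands, by 2.13 ± 0.48. The Tgfb2 call was lost without control day8 array 1 or 2 or NP day8 array 2 or 3 (highest adjusted p 0.0711). Inhbb, a subunit of activin, was at 5.09, 5.77 and 6.11 on NP day8 arrays, against 3.62, 3.39 and 4.45 on control day8 arrays and was the gene of the list that rose (1.84 ± 0.31). The count of falling genes in this list was 4 or 5 without control day8 replicate 1 or 2 or NP day8 replicate 2 or 3. Of 22 Wnt pathway genes 6 fell and 2 rose, the first a count of 1 without any 1 of those 4 arrays. Fzd5, a Wnt receptor of ES cells, rose by 0.78 ± 0.14. Rspo3 (-2.34 ± 0.55), a secreted amplifier of Wnt signals, and Wnt5a (-2.03 ± 0.47), a ligand of mesenchyme, had calls that were lost without control day8 array 1 or 2 or NP day8 array 2 or 3 (highest adjusted p 0.0827). Dlk1, a non-canonical Notch ligand, was at 8.01, 6.64 and 6.86 on NP day8 arrays, against 10.96, 10.41 and 10.40 on control day8 arrays. Dlk1 fell by 3.41 ± 0.45 (adjusted p = 0.00196). Hey2, a Notch target of the heart ventricle, fell by 1.64 ± 0.26, and Rbpj, the DNA-binding effector of Notch, rose by 0.90 ± 0.10.

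Imprinted genes, which are transcribed from 1 parental allele and include many growth regulators, fell for 13 of 31 tested members (41.9%, median -0.56). Plagl1, a zinc finger regulator of other imprinted genes, was at 9.96, 9.40 and 9.27 on NP day8 arrays, against 12.57, 12.23 and 12.01 on control day8 arrays. All NP arrays lay about 2 log2 units or more below the controls, and the fall was 2.73 ± 0.24 (adjusted p = 0.000433). Dlk1 and Dcn (decorin), a matrix proteoglycan that is also in the fibroblast list, were members too, with a change of -2.82 ± 0.48 for Dcn, or -2.56 with the 1 NP array under background set to it. The count was 8 without control day8 replicate 1 or 2 or NP day8 replicate 2 or 3. The arrays do not tell the parental alleles apart.

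Among stress and detoxification genes, 10 of 30 NRF2 and glutathione genes rose (median 0.43), a count of 6 without control day8 replicate 1 or 2 or NP day8 replicate 3. The mean over the list was 8.24 to 8.29 on NP arrays, 7.58 to 7.99 on control day8 arrays and 8.30 to 8.41 on control day0 arrays. Of the 30 genes 2 passed as above both control groups. Cbr3, a carbonyl reductase and NRF2 target, was at 7.68, 8.01 and 8.31 on NP day8 arrays, against 4.94, 5.43 and 5.98 on control day8 arrays. Cbr3 rose by 2.55 ± 0.28 (adjusted p = 0.00099). It stood at a mean of 8.79 ± 0.20 (SD, n = 3) in undifferentiated control cells, above the NP arrays. Gsta4, a glutathione transferase, rose by 1.33 ± 0.14 and Gpx4, the peroxidase of lipid hydroperoxides, at 12.11, 12.28 and 12.37 on NP day8 arrays, against 10.93, 10.58 and 11.37 on control day8 arrays, by 1.29 ± 0.17. Hmox1 (heme oxygenase 1), a widely used marker of oxidative stress, was at 8.14, 7.79 and 7.71 on NP day8 arrays, against 7.24, 7.11 and 7.58 on control day8 arrays (0.57 ± 0.15). The Hmox1 call was lost without any 1 of the NP day8 arrays, control day0 array 1 or 2, control day8 array 1 or 2 or BPA day8 array 1 or 3 (highest adjusted p 0.117). Mt2, a metallothionein, was at 12.31, 12.66 and 12.32 on NP day8 arrays, against 11.53, 11.40 and 12.01 on control day8 arrays (0.78 ± 0.16). The Mt2 call was lost without control day8 array 1 or NP day8 array 2 (highest adjusted p 0.0556). Its neighbour Mt1 did not pass (0.67 ± 0.21, adjusted p = 0.0646), but did under 7 alternatives, such as a pseudocount of 16 (adjusted p = 0.0367), and without control day8 replicate 3 (adjusted p = 0.00374).

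Of 21 xenobiotic metabolism genes 4 rose and 2 fell. The drug transporters Abcb1a (1.63 ± 0.18) and Abcc4 (1.35 ± 0.17) rose with Cbr3. Cyp1a1, the classical target of the aryl hydrocarbon receptor, was at 4.65, 3.66 and 3.99 on NP day8 arrays, against 4.45, 4.77 and 4.75 on control day8 arrays, with overlap, and did not pass (-0.55 ± 0.33, adjusted p = 0.313). Cyp1b1 (-0.72 ± 0.21) and Tiparp (-0.42 ± 0.10), further targets of that receptor, passed as lower. The Cyp1b1 call was lost without any 1 of the control day0, BPA day8 or NP day8 arrays or control day8 array 1 or 2 (highest adjusted p 0.129). The Tiparp call was lost without any 1 of the NP day8 arrays or control day8 array 1 or 2 (highest adjusted p 0.0856). Of 17 genes for estrogen receptors and response, Esrrb rose and Igfbp4, a binding protein of insulin-like growth factors, fell by 2.25 ± 0.27. Greb1 (-1.28 ± 0.35), an estrogen-induced cofactor, passed too. Of this list 5.88% rose and 11.8% fell, beside 7.9% and 6.28% over all genes. The Greb1 call was lost without any 1 of the control day8 arrays, control day0 array 1, BPA day8 array 1 or NP day8 array 2 or 3 (highest adjusted p 0.136). Esr1, estrogen receptor alpha, lay near or below background in both groups at 3.46, -0.09 and 3.62 on NP day8 arrays, against 1.498, 3.25 and 2.39 on control day8 arrays and overlapped.

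Of 32 interferon and antigen processing genes 9 rose and 1 fell. Psmb8, a subunit of the immunoproteasome, was at 5.70, 6.02 and 6.15 on NP day8 arrays, against 3.94, 2.48 and 3.83 on control day8 arrays. Psmb8 rose by 2.54 ± 0.43 (adjusted p = 0.00606), or by 2.23 with control day8 replicate 2 set to background. Irf1, a transcription factor of the interferon response, rose by 1.36 ± 0.19, and Ifitm3, a membrane protein that ES and germ cells express, by 1.26 ± 0.15. Ifit2, a classical interferon-induced gene, was at -1.33 ± 0.31. The Ifit2 call was lost without control day8 array 1 or 2 or NP day8 array 1 or 2 (highest adjusted p 0.0835). Cholesterol synthesis genes fell for 6 of 27, among them Hmgcs1 (-0.70 ± 0.17), the synthase at the entry of the pathway. The Hmgcs1 call was lost without any 1 of the NP day8 arrays or control day8 array 1 or 2 (highest adjusted p 0.0877). The cholesterol count ran from 0 without control day8 replicate 1 or 2 or NP day8 replicate 2 to 10 without control day0 replicate 3. It was 3 without control day8 replicate 3, 2 without NP day8 replicate 1 and 1 without NP day8 replicate 3. Of 34 genes of the ER stress and amino acid response 6 rose and 1 fell, the first a count of 2 without control day8 replicate 1 or 2 or NP day8 replicate 2 or 3. They were led by Slc7a3, a cationic amino acid transporter of ES cells, at 9.002, 9.40 and 10.02 on NP day8 arrays, against 7.31, 7.18 and 7.42 on control day8 arrays (rise 2.17 ± 0.22), with Asns, asparagine synthetase, at a rise of 0.76 ± 0.09.

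Growing cells assemble ribosomes and copy their DNA with large sets of shared factors. Ribosome assembly and RNA polymerase I genes rose for 18 of 46 members (39.1%, median 0.40), with Dkc1, the pseudouridine synthase of box H/ACA particles, at 10.92, 11.11 and 11.10 on NP day8 arrays, against 10.02, 10.12 and 10.12 on control day8 arrays (rise 0.95 ± 0.11, adjusted p = 0.00107) and Rrp12, a ribosome export factor, at a rise of 0.83 ± 0.14. Of 41 DNA replication genes 14 rose and 1 fell. The fall was that of Tyms, the thymidylate synthase that supplies dTMP, at 3.64, 4.19 and 2.75 on NP day8 arrays, against 5.21, 5.17 and 4.71 on control day8 arrays. This change of -1.51 ± 0.37 was lost without control day8 array 1 or 2 or NP day8 array 3 (highest adjusted p 0.0884), and with the mean of its probe sets it was -0.02. The rises included Rfc5, a clamp loader subunit (0.71 ± 0.12), and Orc1 (0.76 ± 0.15), of the origin recognition complex. The Orc1 call was lost without control day8 array 1 (highest adjusted p 0.0538). The ribosome assembly count was 5 to 9 and the replication count 3 to 6 without control day8 replicate 1 or 2 or NP day8 replicate 2 or 3. With only the groups compared in the fit, the ribosome assembly count was 2 and the replication count 0. With the mean of probe sets they were 12 and 6. Of 45 cyclin and mitosis genes 3 rose (6.67%) and 4 fell (8.89%), near the 7.9% and 6.28% over all genes. The second count was 0 without control day8 replicate 1 or NP day8 replicate 2. Ccne1, cyclin E1, rose by 1.03 ± 0.16 and Ect2, a GTPase activator of cytokinesis, by 0.85 ± 0.11. Counts for housekeeping machinery depended on the settings, and with those used here the shares that rose lay below the 7.9% over all genes. They were 3.23% for cytosolic ribosomal proteins, 5.26% for proteasome and CCT chaperonin genes, 4% for oxidative phosphorylation and 7.46% for mitochondrial ribosomal proteins. Small changes above 0 were nevertheless common, in the same order for 30 of 31, 34 of 38, 31 of 50 and 50 of 67 genes. Mean signals on NP and control day8 arrays were 12.47 to 12.57 and 12.31 to 12.41 for cytosolic ribosomal proteins. For proteasome and CCT genes they were 10.68 to 10.77 and 10.53 to 10.65. In the remaining lists these means overlapped. Of 31 cytosolic ribosomal proteins 1 rose, against 3 with median centring, 11 with an intensity trend and 0 with several single arrays left out. Of 38 proteasome and CCT chaperonin genes 2 rose, against 7 with median centring or an intensity trend, 0 with quantile normalization and 0 to 2 with an array left out. Oxidative phosphorylation genes rose for 2 of 50, a count of 0 without control day8 replicate 1 or 2 or NP day8 replicate 2 or 3 and 6 without control day8 replicate 3. Mitochondrial ribosomal proteins rose for 5 of 67, a count of 1 without control day8 replicate 1 or NP day8 replicate 2 or 3 and 8 without control day8 replicate 3. In the p53 and apoptosis list 4 of 30 rose (13.3%) and 2 fell (6.67%), beside 7.9% and 6.28% over all genes. The second count was 0 without any 1 of the control day8 arrays or NP day8 replicate 2 or 3 and 4 without control day0 replicate 3. In this list was Gadd45a, a growth arrest and DNA damage gene, at 8.65, 9.04 and 9.22 on NP day8 arrays, against 6.77, 7.36 and 7.05 on control day8 arrays, a rise of 1.91 ± 0.18 (adjusted p = 0.000557). Cdkn1a (p21), the main p53 target in cell cycle arrest, was at -0.47 ± 0.11. The Cdkn1a call was lost without any 1 of the control day8 arrays or NP day8 array 2 or 3 (highest adjusted p 0.094).

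**Figure D3:**
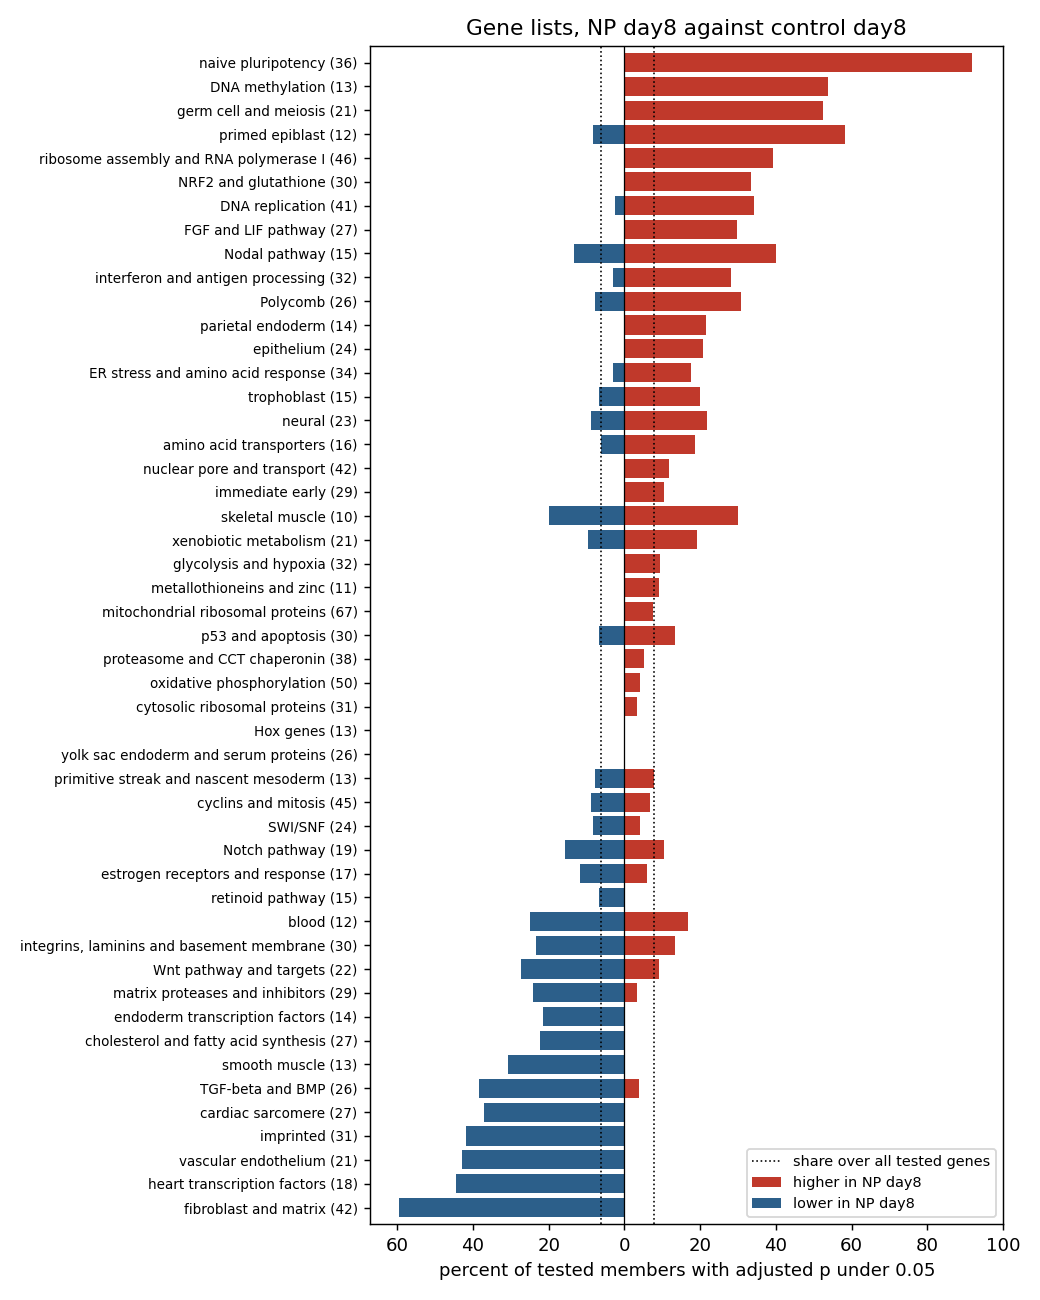
Percent of the tested members of each of 49 gene lists (number tested in brackets) that passed at an adjusted p under 0.05, higher with NP to the right (red) and lower to the left (blue). Dotted lines mark the shares over all tested genes, 7.9% and 6.28%; naive pluripotency (91.7%) and fibroblast and matrix genes (59.5%) reach furthest from them.

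Some genes did not lie between the 2 control groups. Against control day0, 32.1% of genes passed on the NP arrays, 20.2% higher and 11.9% lower. NP arrays were past the threshold in the same direction against both control day8 and control day0 for 253 genes (1.94%), 124 above both (0.949%) and 129 below both (0.987%). None of the 36 naive pluripotency genes or the 27 sarcomere genes was among them. Above both stood Fgf5, at a mean of 7.23 ± 0.47 (SD, n = 3) on NP day8, 4.87 ± 0.53 on control day8, and 5.94 ± 0.14 on day 0 control arrays. Stra8 was at 7.36 ± 0.31 (SD, n = 3) on NP day8, 4.71 ± 0.42 on control day8, and 5.94 ± 0.13 on day 0 control arrays. Aire, an autoimmune regulator of thymus that pluripotent cells also express, was at 6.96, 7.09 and 7.28 on NP day8 arrays, against 4.49, 4.47 and 5.72 on control day8 arrays, and at 5.58, 4.59 and 4.89 on control day0 arrays, with a rise over control day8 of 2.22 ± 0.36. Rhox5, an X-linked homeobox gene of placenta and germ line, rose by 1.29 ± 0.22 over control day8, and Rec114, a protein of meiotic recombination, by 1.35 ± 0.20. H2-Bl, an MHC class I gene, rose by 1.76 ± 0.26, though its probe set may also detect close relatives, which was not tested. Lgals3 (galectin 3), Hs3st1, a heparan sulfate sulfotransferase, and Tfpi, an inhibitor of coagulation made by parietal endoderm, were above both as well. Against control day8, the Lgals3 call was lost without any 1 of the NP day8 arrays or control day8 array 1 or 2 (highest adjusted p 0.104). The Hs3st1 call was lost without control day8 array 1 or NP day8 array 2 (highest adjusted p 0.0603). The Tfpi call was lost without any 1 of the control day0 arrays, control day8 array 1 or 2, BPA day8 array 1 or 2 or NP day8 array 2 or 3 (highest adjusted p 0.143).

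Below both control groups were 19 of the 42 fibroblast and matrix genes, among them each of Col5a2, Col3a1, Col1a1, Col1a2, Postn, Prrx1 and Ccdc80. Col5a2 was at 5.07 ± 0.64 (SD, n = 3) on NP day8, 9.12 ± 0.30 on control day8, and 10.16 ± 0.34 on day 0 control arrays. Prrx1, a homeobox factor of mesenchyme, was at 4.19, 3.44 and 4.86 on NP day8 arrays, against 7.01, 6.71 and 6.14 on control day8 arrays and at 7.93, 8.43 and 8.17 on control day0 arrays. Ccn4 (WISP1), a matricellular Wnt target, fell by 3.15 ± 0.32 against control day8 and Cdh11, the cadherin of mesenchyme, by 2.85 ± 0.37. Ccdc80, a matrix protein, changed by -3.48 ± 0.85, or by -3.34 with the 1 NP array under background set to it. The Ccdc80 call was lost without any 1 of the control day8 arrays or NP day8 array 2 or 3 (highest adjusted p 0.0947). The mean over the fibroblast list was 5.76, 5.49 and 5.74 on NP arrays, 7.26, 7.16 and 7.21 on control day8 arrays and 8.32 to 8.59 on control day0 arrays. S100a4 and Thy1 had means of 10.21 ± 0.37 (SD, n = 3) and 8.18 ± 0.29 (SD, n = 3) on the control day0 arrays, far above day 8. How much of the day 0 level came from feeder cells was not tested. The count of genes outside both groups was 124 when control day8 replicate 1 was left out, 151 for control day8 replicate 2, 128 for NP day8 replicate 2 and 151 for NP day8 replicate 3.

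**Figure D4:**
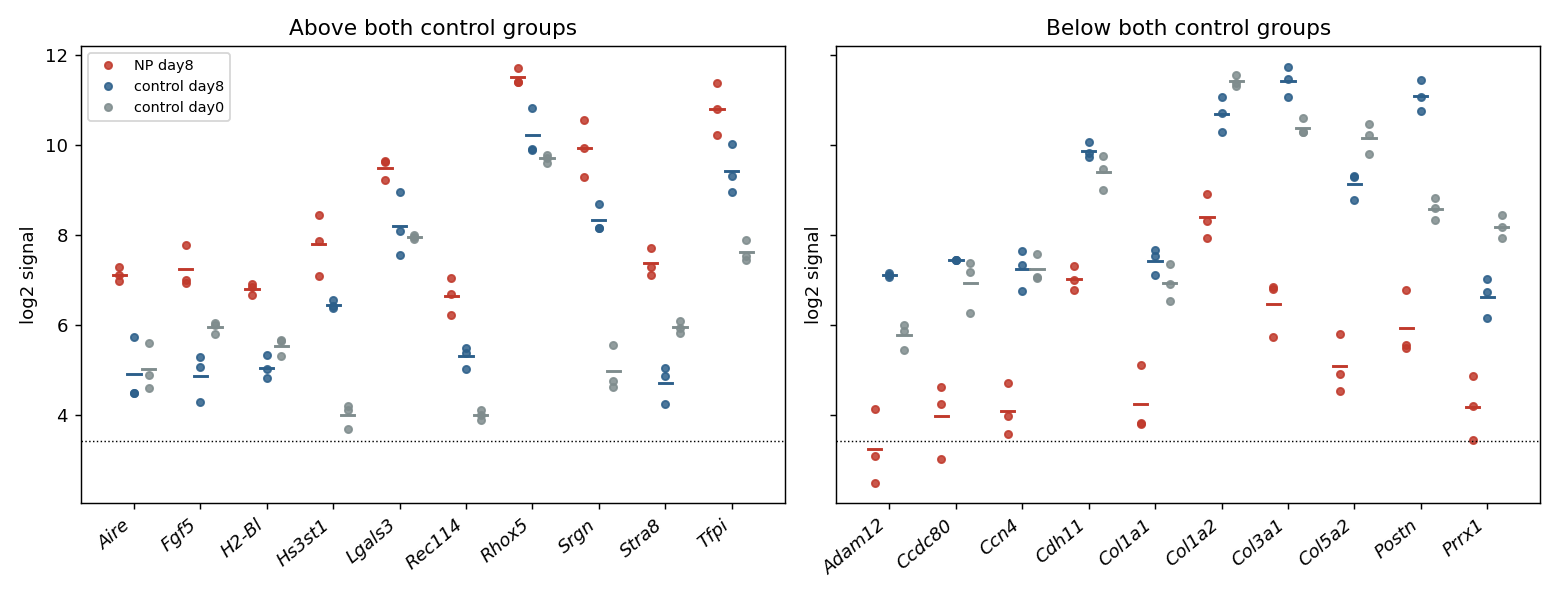
Log2 signal of the 10 genes furthest above both control groups (left) and the 10 furthest below both (right), with NP day8 (red), control day8 (blue) and control day0 (grey); points are arrays, short bars group means and the dotted line the background signal of 3.41. The 20 genes were taken from those for which no NP array overlaps either control group, so the gaps seen here follow from that choice. Of the 10 genes below both, 4 are collagens.

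The response to NP was set against that to BPA directly, as a difference between the 2 treated groups. By limma 1 of 13067 genes passed (0.00765%), while 1095 had an unadjusted p under 0.05 and the median standard error of the difference was 0.20. The gene was Tgfb3, a TGF-beta ligand, at 3.62, 3.89 and 3.60 on NP arrays and 0.54, -0.13 and 1.27 on BPA arrays. The fitted difference was 3.14 (adjusted p = 0.0425). All BPA arrays lay under the background level of 3.41, so the measured difference was at least 0.30. Tgfb3 passed without control day0 replicate 2, BPA day8 replicate 2 or BPA day8 replicate 3 and was lost without any of the other 9 arrays (adjusted p up to 0.188). NP and control day8 arrays overlapped for it. For genes that led the comparison with control, the difference between NP and BPA was -0.08 (95% interval -0.93 to 0.76) for Pou5f1, -0.06 (95% interval -0.82 to 0.70) for Dppa2, -0.32 (95% interval -1.05 to 0.42) for Col3a1 and 0.04 (95% interval -0.68 to 0.77) for Postn. For heart genes the intervals were wider, at 0.38 (95% interval -1.91 to 2.67) for Tnnt2 and 0.53 (95% interval -1.11 to 2.17) for Hand2, so a difference of several fold between the agents would not have been detectable. The comparisons of NP and of BPA with control share the control day8 arrays, and doses are not given, so no agreement between them is drawn from these values.

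**Figure D5:**
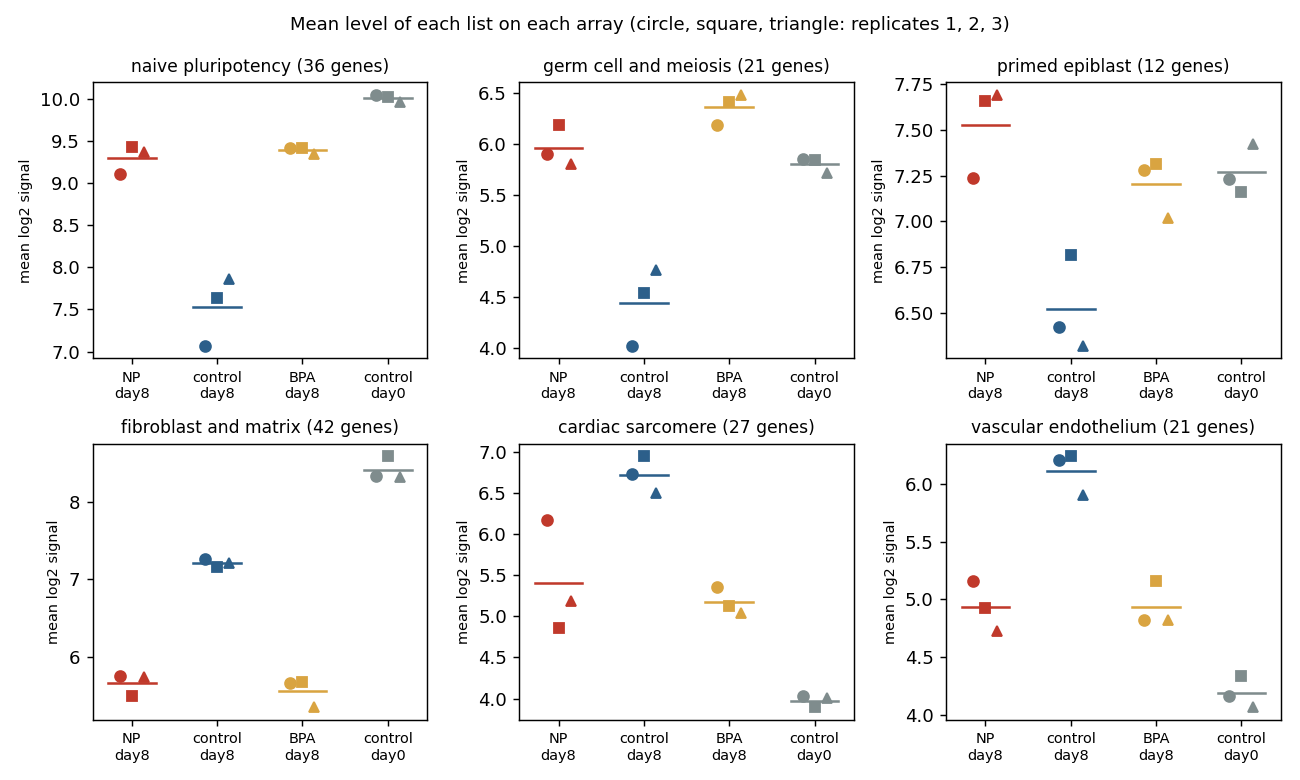
Mean log2 signal over the tested members of 6 gene lists on each of the 12 arrays; colours mark the groups, symbols the replicates and bars the group means. NP arrays lie above control day8 arrays in the upper panels and below them in the lower panels, NP day8 replicate 1 is the NP array nearest to control day8 for cardiac sarcomere genes, and the mean over naive genes is 9.39 on BPA arrays beside 9.30 on NP arrays.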

How the data were processed

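Gene expression was measured on 12 single-colour Affymetrix arrays of biotin-labelled material, 3 per group. The authors deposited log2 values, made with MAS5 per the submitters' processing notes, whose version is not given in the sources used here. Each array's trimmed mean was the same, so arrays had been scaled before deposit, and MAS5 values are noisy at low signal. Of 45101 probe sets, 64 were controls, 34958 had 1 gene in the platform annotation, 932 several, and 9211 were not listed. The upper 60% by mean signal were kept (27023) and each of 13067 genes took its probe set with the highest mean. Groups were compared with limma 3.58.1 (R 4.3.3) on the deposited values, 1 mean per group and no covariate, over all 12 arrays, with Benjamini-Hochberg adjustment over all genes at 0.05. Background was the highest log2 signal of the bacterial TrpnX control probe sets, and values under it were set to it for lower bounds of a fold where a group mean lay under it; where single arrays did, the change is also given that way.

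The 49 gene lists (1385 genes, 1190 tested) and the genes compared were chosen with earlier results of these data known. Named were the 10 largest rises and falls without overlap and with a higher group mean at or above the median. Also named were the 10 per direction furthest outside both control groups, under the same level condition and without overlap with either group. Up to 3 genes per list and direction and fixed markers were named too. The genes whose promoters are printed, and the members of lists given with values although they did not pass, were added after their values were seen. Promoters are from RefSeq (GRCm38.p6), searched on both strands over 250 bases before the start. Alternatives were pseudocounts of 16 and 32, other filters, quantile normalization, median centring, the mean of probe sets, an intensity trend, array weights, only the groups compared, the replicate block, a minimum fold and each array left out. The steps were tested on simulated data. Figures were drawn with matplotlib 3.10.9 (Python 3.11.15).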

Additional observations from a re-analysis of the deposited data

Results flagged for a closer look

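Tgfb3 was the 1 gene for which NP day8 and BPA day8 differed past the threshold when the difference itself was tested, with 3.14 as the fitted difference, NP day8 minus BPA day8, on the log2 scale. The 3 BPA arrays lay under the background signal, and the difference measured above background was at least 0.30.

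Probe sets with no single gene in the annotation were outside the comparison of genes. When they were tested with it, 60 of 3730 passed at an adjusted p under 0.05 by limma, 40 higher with NP and 20 lower. The share over all tested genes was 14.2%, with 7.9% higher and 6.28% lower. Why these probe sets passed less often was not tested.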

How the results depend on the processing

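Counts of genes called between NP day8 and control day8 stayed within 1.5 times of 1852 (1032 higher, 820 lower), except for 1182 (669 higher, 513 lower) with no filter on low values, where 18193 genes were tested, 645 (323 and 322) with only the groups compared in the fit, 41 (24 and 17) against a minimum fold of 2, and 1250 lower genes with a pseudocount of 32. Adding 16 gave 2263 calls, array weights 2626, an intensity trend 2365 and median centring 1897, with 64.3% of calls higher against 55.7%. Leaving out 1 array gave 802 to 1874 calls, 487 to 1123 higher and 303 to 869 lower. Between NP and BPA the count of 1 became 0 with a pseudocount of 16 or 32, 40% of probe sets kept, an intensity trend with or without a robust prior, only the groups compared, the replicate block or a minimum fold, became 4 with no filter and 3 with array weights or the mean of probe sets, and ran from 0 to 3 with an array left out. Genes outside both control groups (253, of which 124 above and 129 below) numbered 168 with no filter (65 above), 383 with array weights (216 above), 105 with only the groups compared (40 above, 65 below), and 8 against a minimum fold (0 above, 8 below), while 217 were above with a pseudocount of 32 and 76 with the mean of probe sets. With an array left out they ran from 124 to 290, with 36 to 170 above and 75 to 126 below. Some of these fits use fewer samples or test more genes by construction. Why the counts differed was not tested for any setting.

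With the replicate number as a block, 1551 genes passed (859 higher, 692 lower), 1434 of them among the 1852, and 216 lay outside both control groups (102 above, 114 below). Across genes, deviations of same-numbered NP and control day8 arrays from their group means had correlations of 0.065, 0.013 and 0.081. With 3 arrays a group this cannot show whether same-numbered samples belong together, and the titles give only a number. Of the 187 genes named in the rule that passed, 103 passed in each fit with an array left out. Under the other settings 0 of 176 were lost with 40% of probe sets kept, 1 with a pseudocount of 16, 2 with 32, 6 with quantile normalization, 5 with median centring, 21 with the block, 46 with the mean of probe sets, 49 with no filter, 84 with only the groups compared and 164 against a minimum fold. With the mean of probe sets Smad3 turned to 0.29 and Uqcrq, a subunit of respiratory complex III, to -0.043. Calls lost under that setting included those of Hand2, Actl6a, Smarca2, Ccne1, Epcam, Inhbb, Spry4 and Fzd5. Genes near the background signal of 3.41 have only a bound where a group lies under it.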

Other observations

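Muscle genes did not all fall. Of 27 sarcomere genes 17 did not pass, and of 10 genes of skeletal muscle 3 passed higher and 2 passed lower with NP. Mylpf, a regulatory light chain of fast skeletal muscle, was at 8.04, 8.20 and 8.32 on NP day8 arrays, against 5.40, 5.84 and 6.44 on control day8 arrays, with no overlap,. Mylpf rose by 2.29 ± 0.26 (adjusted p = 0.00109 by limma). On control day0 arrays it was at 8.56, 8.70 and 7.97. Pgam2, the phosphoglycerate mutase of muscle, was at -2.21 ± 0.60. The Pgam2 call was lost without any 1 of the control day8, BPA day8 or NP day8 arrays or control day0 array 1 (highest adjusted p 0.13).

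Of 29 immediate early genes, which respond within minutes to growth factors, 3 rose (10.3%, near the 7.9% over all genes). They were Klf2 (2.16 ± 0.32) and Klf4 (1.15 ± 0.14), which also belong to the naive network, and Dusp1 (0.88 ± 0.10), a phosphatase of MAP kinases. Of 32 glycolysis and hypoxia genes 3 passed higher (9.38%, near the 7.9% over all genes). Ldhb, a lactate dehydrogenase subunit, was at 10.29, 10.51 and 10.04 on NP day8 arrays, against 8.88, 9.19 and 9.45 on control day8 arrays. Ldhb rose by 1.11 ± 0.19 (adjusted p = 0.00589 by limma), and it stood at 9.41 ± 0.26 (SD, n = 3) on control day0 arrays, below the NP arrays. Of 42 nuclear pore and transport genes 5 rose (11.9%), a count of 1 without control day8 replicate 1 or NP day8 replicate 2. Of 16 amino acid transporters 3 rose and 1 fell, the first a count of 1 without control day0 replicate 1 or 2, control day8 replicate 1 or 2, BPA day8 replicate 1 or 2, or NP day8 replicate 2 or 3. Of 11 metallothionein and zinc genes Mt2 passed (9.09%), and the count was 0 without control day8 replicate 1 or NP day8 replicate 2 and 3 without control day8 replicate 3. Of 15 retinoid pathway genes Crabp1, a binding protein of retinoic acid, fell by 0.69 ± 0.14. That was 6.67% of the list, near the 6.28% over all genes. The Crabp1 call was lost without control day8 array 1 (highest adjusted p 0.0537). Of 19 Notch pathway genes 2 rose (10.5%) and 3 fell (15.8%). Heyl was among the rises, with all 3 control day8 arrays and 1 NP array under background. With such values set to background its change was 0.37. The Heyl call was lost without any 1 of the control day0 or BPA day8 arrays, control day8 array 1 or 3 or NP day8 array 2 or 3 (highest adjusted p 0.16). Of 13 genes of the primitive streak and nascent mesoderm Tcf15 rose and Pdgfra, the PDGF receptor of mesenchyme, fell by 0.88 ± 0.21. Each was 7.69% of the list, near the 7.9% and 6.28% over all genes. The Pdgfra call was lost without control day8 array 1 or 2 or NP day8 array 1 or 2 (highest adjusted p 0.0812).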
